A study of Mus musculus with 18 samples.

Results

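The translation initiation and elongation factors are described here: 52 of the 30452 genes in the deposited tables of light zone germinal centre B cells. They were chosen by name. All gene symbols of the eIF1 to eIF6 families were taken, without the eIF4E-binding proteins, the eIF2 kinases and the Y-linked copy Eif2s3y, together with the elongation factors Eef1a1, Eef1b2, Eef1d, Eef1g and Eef2. The rule reads names and no expression value. The 52 genes are in both tables, with a level high enough to be tested in each.

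A germinal centre is the structure of a lymphoid organ in which B cells mutate their antigen receptors and are selected. In its light zone, B cells that present antigen receive help from T follicular helper cells, after which they grow and divide. Growth of this kind draws on protein synthesis, which begins when initiation factors bring the initiator tRNA, the small ribosomal subunit and a capped mRNA together, and goes on when elongation factors deliver aminoacyl-tRNAs and move the ribosome along the message. The kinase complex mTORC1, which rapamycin inhibits, acts on this machinery mainly through translation: the mRNAs of elongation factors and of several eIF3 subunits begin, in human cells, with a 5′ terminal oligopyrimidine tract that makes their translation depend on mTORC1. Only mRNA was measured in the tables used here, not translation or protein.

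All libraries came from popliteal lymph nodes of C57BL/6 hosts that were primed with OVA in alum 2 weeks before they received B1-8hi B cells, which carry an antigen receptor heavy chain for the hapten NP. Of the transferred cells 15% were Ly75+/+ and CD45.1 (DECP) and 85% were Ly75-/- and CD45.1/2 (DECN), where Ly75 encodes the uptake receptor DEC205. The hosts were immunised with NP-OVA in the footpads, and on day 6 an antibody to DEC205 joined to OVA was injected. Among the transferred cells, this treatment was meant to give antigen to DECP cells alone. DECP and DECN cells therefore shared hosts, immunisation and antibody, and differed in the Ly75 alleles, the CD45 alleles and the targeted antigen, which cannot be told apart. Sorted cells were B220+ CD38- CD95+ CD83hi CXCR4lo. There were 3 DECP and 3 DECN libraries at 12 h after the antibody. At 24 h there were 4 DECP libraries, 4 DECN libraries and 4 DECP libraries from animals that were also given rapamycin at a dose of 2.5 mg/kg together with the antibody. No DECN libraries came from rapamycin-treated animals. Rapamycin-treated DECP and DECN cells thus did not share hosts, and the drug cannot be told apart from the other differences between them. Whether each library stands for an animal of its own is not labelled, and the p-values cover the spread between libraries, which may be technical.

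Values (TPM) are shares of all transcripts, corrected for transcript length and scaled to one total in every library, and changes are differences of log2(TPM + 1). Read depth per library is unknown from these values. Genes with a TPM of at least 1 numbered 13114 to 13597 per library at 12 h and 11128 to 12244 at 24 h. Ly75 checked the labels: it was at 26.0 to 39.6 TPM in DECP and 8.53 to 10.1 in DECN at 12 h, and at 24 h at 10.3 to 18.1 in DECP, 8.66 to 19.0 with rapamycin and 2.76 to 6.66 in DECN. Reads of Ly75 were thus present in libraries labelled as knockout, at a lower level than in all DECP libraries of the same time. The B cell gene Cd79a was at 145 to 204 TPM at 12 h and 252 to 663 TPM at 24 h, whereas the T cell gene Cd3e did not exceed 2.12 TPM and the macrophage gene Csf1r did not exceed 1.54 TPM. Other markers of those cells were present: over all libraries Lck was at 58.4 to 218 TPM, Cd3d at 12.7 to 54.2, Trbc2 at 0 to 44.7 and Cd68 at 0.387 to 49.1 TPM. Summed germinal centre B cell markers were lower in DECP than in DECN, at 3991 to 4923 against 5807 to 6133 TPM at 12 h and 3108 to 3936 against 5081 to 5985 TPM at 24 h, with 4355 to 5074 TPM under rapamycin. Summed T cell markers were at 176 to 181 against 212 to 242 TPM at 12 h and 110 to 137 against 139 to 234 TPM at 24 h, with 153 to 171 TPM under rapamycin. Most of that sum was Lck, and its members differed in direction at 24 h: Lck was lower in DECP than in DECN (log2 -0.90, limma adjusted p = 0.00917), and Cd3d was higher, at 34.7 to 54.2 against 12.7 to 17.6 TPM (log2 1.29, limma adjusted p = 0.00528), as it was under rapamycin, at 27.9 to 46.5 TPM (log2 1.12, adjusted p = 0.0281). Summed myeloid markers, most of it Apoe, were at 691 to 849 against 1295 to 1681 TPM at 12 h and 416 to 626 against 1032 to 1133 TPM at 24 h, with 621 to 1192 TPM under rapamycin. Summed plasma cell markers, most of it Jchain, were at 529 to 805 against 720 to 807 TPM at 12 h. At 24 h they were at 907 to 1247 against 803 to 1032 TPM, with 567 to 884 TPM under rapamycin. Of 4 tested, only Jchain was lower under rapamycin than in DECP, at 386 to 705 against 751 to 1096 TPM. Summed naive and memory B cell markers were at 223 to 278 against 193 to 273 TPM at 12 h. At 24 h they were at 64.8 to 116 against 127 to 160 TPM, with 123 to 225 TPM under rapamycin. Cd83 and Cxcr4, genes of the CD83hi CXCR4lo gate, overlapped between DECP and DECN at 12 h. At 24 h Cd83 was lower in DECP, at 566 to 788 against 835 to 1028 TPM, with 826 to 1215 TPM under rapamycin. Cxcr4 was higher in DECP, at 84.8 to 135 against 36.8 to 77.1 TPM, with 94.99 to 179.9 TPM under rapamycin. These mRNAs thus do not show that DECP and DECN cells were equal light zone cells. The part of these marker differences in the results below was not tested. In bulk RNA, fewer cells of a type and less RNA per cell cannot be told apart.

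The tables for the 12 h and the 24 h libraries stand apart. Eif5b, the factor that joins the ribosomal subunits, was at 502 to 873 TPM in every library of the first and at 35.4 to 44.9 TPM in every library of the second, and ribosomal protein genes held 1.61% to 4.48% of all transcripts in the first and 17.9% to 25.1% in the second. Differences between groups were therefore taken only within a table, and a difference between the times was not tested.

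As a whole, the 52 factors took a larger share of the transcriptome in DECP than in DECN cells. Their summed level at 12 h was 26156, 29997 and 35680 TPM in DECP, against 16819, 19377 and 19817 TPM in DECN. Eef1a1 alone gave about as much of this as the other members together. Without it the sum was 12706 to 15224 TPM in DECP and 8670 to 10706 TPM in DECN, so the groups did not overlap either way. At 24 h the sum was 22743 to 26627 TPM in DECP, 18892 to 21032 TPM in DECN and 24794 to 25721 TPM in rapamycin-treated DECP. DECP libraries, with or without rapamycin, lay above the DECN libraries, which had no rapamycin. The rapamycin-treated libraries lay within the range of the untreated DECP ones. The make-up of the sum was not the same: Eef1a1 was at 9183 to 10324 TPM under rapamycin and at 6804 to 8354 TPM without it, whereas all other members together were at 15174 to 15767 TPM under rapamycin and at 15519 to 18273 TPM without it.

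**Figure D1:**
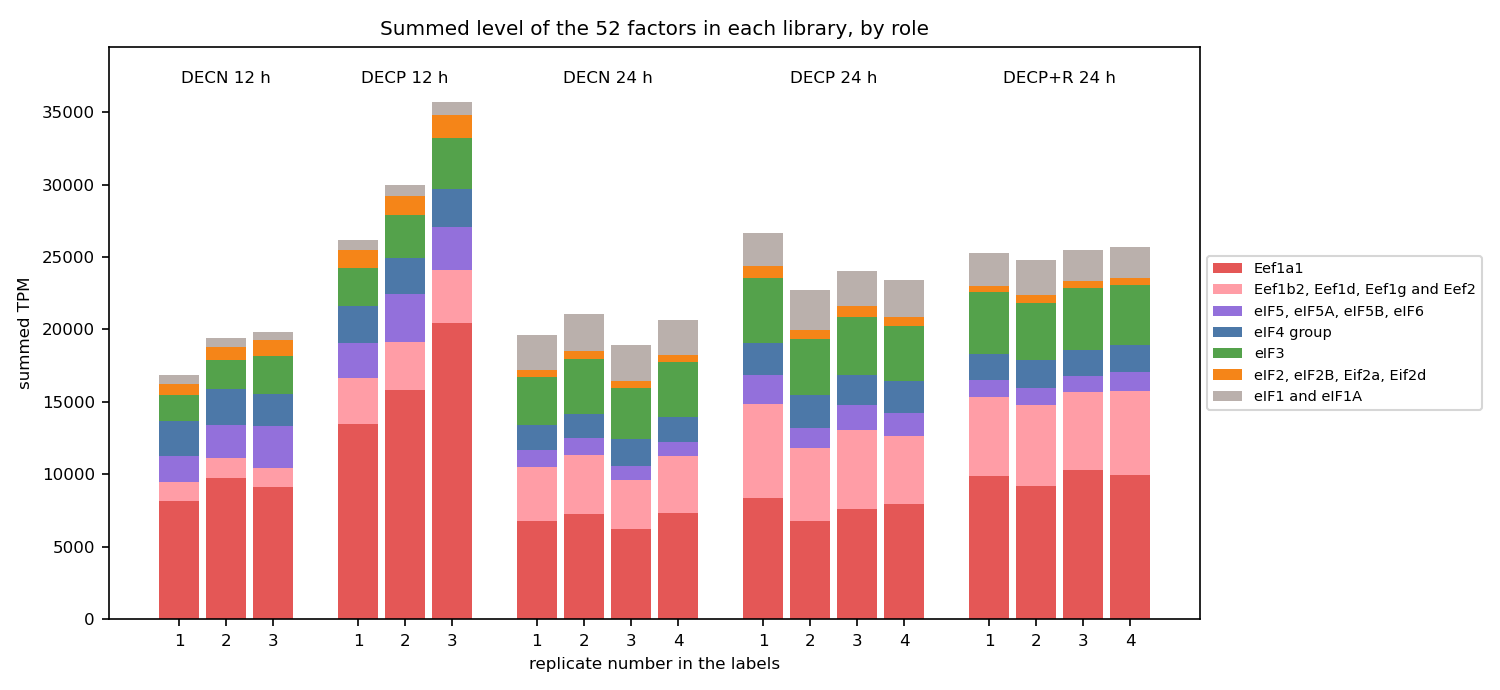
Summed TPM of the 52 factors in each of the 18 libraries, stacked by role (vertical axis, TPM; one bar per library). DECP bars stand above DECN bars at both times, and at 12 h the Eef1a1 block is higher in every DECP bar than in any DECN bar. Heights at 12 h and 24 h are not to be compared.

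At 12 h the factors were higher in DECP cells across most of the list. Of the 52 members, 45 had a positive difference, the median difference was 0.63 on the log2 scale against -0.05 for all 13429 genes tested, and 9 rose in limma's moderated test with Benjamini-Hochberg adjusted p under 0.05. These 9 are 17.3% of the members, while 1.84% of all genes tested rose. They were Eef1b2, Eif5a, Eef1d, Eef1g, Eif3b, Eif1ax, Eif2b3, Eef1a1 and Eif2s3x, among them 4 of the 5 elongation factors. No member fell, against 1.05% of all genes. At an unadjusted p under 0.05, 25 members were higher, where 10.8% of all genes were, and 2 were lower (9.09% of all genes). All 3 DECP libraries were above all 3 DECN libraries for 30 members (12.6% of all genes), and below them for Eif4enif1 and Eif4g3 (13.7% of all genes). The count of 9 was 0 without DECN replicate 1, without DECN replicate 2 or without DECP replicate 1, 1 without DECP replicate 2, 2 without DECP replicate 3 and 4 without DECN replicate 3. It was 1 with no filter on low values and 3 with no intensity trend, although the difference of each of the 9 kept its sign in every setting tried.

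At 24 h DECP cells again held more of these mRNAs than DECN cells, with partly different members past the threshold. The median difference was 0.31 on the log2 scale against 0.00 for all 12783 genes tested, 40 members were positive, and 9 rose, where 2.72% of all genes did. The members that rose were Eif4a1, Eif5a, Eef1g, Eef1b2, Eif4e, Eif2s1, Eif2s2, Eif3a and Eif3b. None fell, against 1.32% of all genes, and at an unadjusted p under 0.05 there were 22 higher (10.3% of all genes) and 0 lower (7.42% of all genes). In 14 members all 4 DECP libraries were above all 4 DECN libraries (6.81% of all genes), and in 0 they were all below (4.7% of all genes). Eef1b2, Eif5a, Eef1g and Eif3b rose at both times, 4 members or 44.4% of each list of 9. The matching share over all genes that rose was not counted, so whether 44.4% is high is not known. Between 5 and 9 members passed as each library was left out, the lowest count without DECN replicate 2, and 5 passed with quantile scaling, 3 with no intensity trend and 1 with a 2-fold minimum. As libraries were left out, Eif4a1, Eif5a, Eef1g, Eef1b2 and Eif4e passed in all 12 fits.

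Rapamycin-treated DECP cells differed from untreated DECP cells at 24 h in both directions. Eif2s1, Eif2s2, Eif4a1, Eif3j2 and Eif5a fell, 5 members where 1.53% of all genes fell, and Eef1a1 rose, 1 member where 0.657% of all genes rose. The median difference was -0.24 on the log2 scale against 0.02 for all genes, and 36 of the 52 were negative. At an unadjusted p under 0.05, 15 were lower (8.32% of all genes) and 5 higher (5.58% of all genes). All rapamycin-treated libraries were below all untreated ones for 13 members (5.33% of all genes) and above them for 5 (3.63% of all genes). The split of 1 higher and 5 lower became 3 higher (Eef2, Eif3f and Eif3h) and 0 lower with quantile scaling, 0 and 4 with median centring, 1 and 0 with TPM rescaled without ribosomal protein genes, and 0 and 1 when the 2 groups were fitted alone, and 0 and 0 with no intensity trend or a 2-fold minimum. The count of 5 lower was 0 without DECP replicate 1 or 4 or without rapamycin replicate 1, 3 or 4, 1 without DECP replicate 2, 2 without DECP replicate 3 and 3 without rapamycin replicate 2. The 1 higher became 0 without DECP replicate 2 or 3 or without rapamycin replicate 1, 3 or 4, and 2 without rapamycin replicate 2. Ribosomal protein genes held 23.0% to 25.1% of transcripts in the rapamycin-treated libraries, 18.3% to 21.9% in untreated DECP and 17.9% to 20.5% in DECN. With TPM rescaled without those genes, Eif4a1, for example, differed by -0.47 in place of -0.54 (limma adjusted p = 0.0698).

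Against DECN cells, which had no rapamycin, rapamycin-treated DECP cells had 3 members higher, where 0.774% of all genes were. All 3 were elongation factors: Eef1a1, Eef1b2 and Eef1g. No member was lower (0.532% of all genes), with 9 higher and 0 lower at an unadjusted p under 0.05 (6.89% and 6.42% of all genes). The groups did not overlap for 7 members, all higher (4.62% of all genes higher and 3.94% lower). The median difference was 0.08 on the log2 scale against 0.02 for all genes. None of the 3 passed with no intensity trend or with a 2-fold minimum, and 1 passed without rapamycin replicate 4. The comparison with untreated DECP and the comparison with DECN share the rapamycin-treated libraries, and the comparison of untreated DECP with DECN shares libraries with both, so their values are set side by side below and none supports another.

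**Figure D2:**
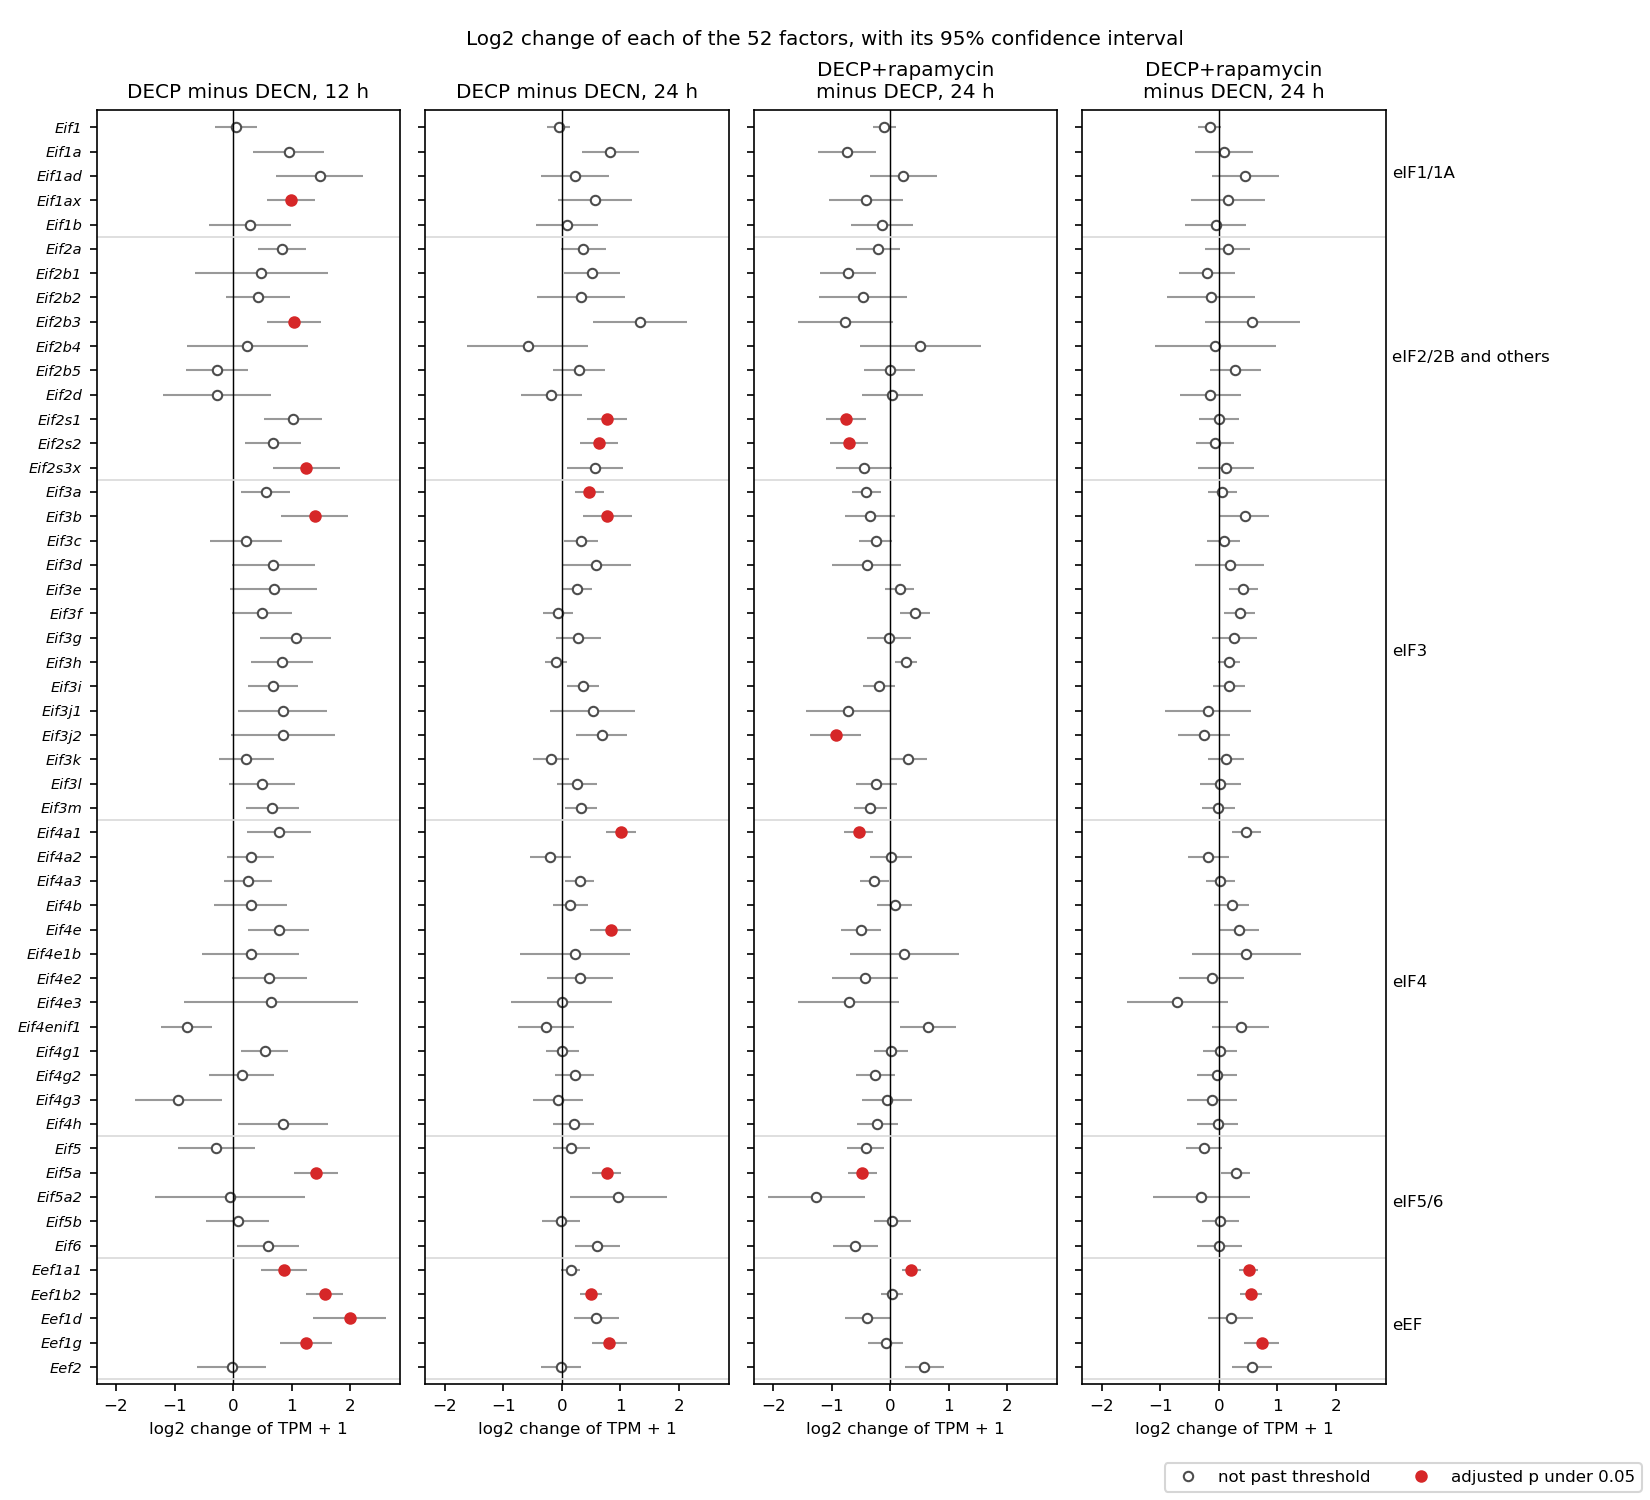
Difference of mean log2(TPM + 1) for each of the 52 factors (horizontal axis, log2; bars, 95% confidence interval) in the 4 comparisons, grouped by role. Filled points have a limma adjusted p under 0.05: 9 at 12 h and 9 at 24 h lie right of 0, and in the third panel 1 lies right and 5 left.

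The eIF1 and eIF1A proteins bind the small subunit and keep it open for scanning to the start codon. Of the 5 members, Eif1ax rose at 12 h, from 63.1, 71.5 and 74.6 TPM in DECN to 129, 136 and 151 TPM in DECP. The groups did not overlap, and the ratio of the means was 1.99, with a log2 difference of 0.98 ± 0.18 (SE, 3 against 3 libraries, limma adjusted p = 0.0370). At 24 h its groups overlapped, at 60.3 to 170.4 TPM in DECP and 43.8 to 79.0 TPM in DECN. Its autosomal copy Eif1a showed no overlap at 24 h, at 137 to 203 TPM in DECP, 55.8 to 121 TPM in DECN and 82.7 to 117 TPM under rapamycin, and missed the threshold against DECN (log2 difference 0.83, 95% interval 0.34 to 1.32, limma adjusted p = 0.0598). Both genes encode near-identical proteins, and a read that fits both is divided between them by an estimate. Eif1, the most abundant of these mRNAs at 24 h, was at 1718 to 2394 TPM over all groups, and DECP differed from DECN by -0.05 (95% interval -0.24 to 0.15).

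Among the carriers of the initiator tRNA, the 3 subunits of eIF2 had higher means in DECP than in DECN at both times. Eif2s1 (chr12:78861819-78887010, plus strand) encodes the alpha subunit, on which stress kinases act to limit initiation. Its TPM at 24 h was 158, 171, 149 and 147 in DECP, 84.2, 86.3, 98.5 and 97.0 in DECN and 90.8, 123, 70.9 and 88.7 under rapamycin. All DECP libraries stood above all libraries of the other groups, which overlapped. The increase over DECN was 1.71-fold (log2 0.77 ± 0.16 SE, 4 against 4 libraries, limma adjusted p = 0.0165), and rapamycin-treated cells were 1.67-fold lower than untreated DECP (log2 -0.76 ± 0.16 SE, adjusted p = 0.0255). Their difference from DECN was 0.01, with a 95% interval of -0.34 to 0.35. At 12 h Eif2s1 was at 96.1, 90.1 and 117 TPM in DECP and 43.9, 46.1 and 58.9 TPM in DECN, just short of the threshold (limma adjusted p = 0.0515).

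Eif2s2, the beta subunit, was also highest in untreated DECP. It was at 132, 107, 115 and 115 TPM in DECP at 24 h, 69.7, 82.0, 72.0 and 77.3 TPM in DECN and 61.2, 92.1, 63.5 and 72.9 TPM under rapamycin. DECP again stood apart from the other groups, by 1.56-fold from DECN (log2 0.63 ± 0.15 SE, limma adjusted p = 0.0341) and 1.62-fold from rapamycin-treated cells (log2 -0.70 ± 0.15 SE, adjusted p = 0.0296). The gamma subunit Eif2s3x rose at 12 h, from 72.3, 112 and 91.8 TPM in DECN to 199, 181 and 279 TPM in DECP, with no overlap (log2 1.24 ± 0.24 SE, 3 against 3 libraries, limma adjusted p = 0.0455). At 24 h its ranges met, at 45.3 to 68.1 TPM in DECP and 25.8 to 47.3 TPM in DECN. Eif2b3 encodes a subunit of eIF2B, which reloads eIF2 with GTP. It rose at 12 h from 28.1, 25.7 and 30.5 TPM to 55.5, 58.7 and 62.5 TPM (2.10-fold, log2 1.04 ± 0.20 SE, limma adjusted p = 0.0422). At 24 h it was at 99.2, 44.0, 54.3 and 35.7 TPM in DECP and 22.5, 30.4, 21.2 and 12.7 TPM in DECN, without overlap and short of the threshold (log2 1.34, 95% interval 0.53 to 2.14, limma adjusted p = 0.0651). The other 4 eIF2B subunits and the alternative tRNA carriers Eif2a and Eif2d passed in no comparison.

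The eIF3 complex is the largest initiation factor and holds the small subunit and the mRNA-bound factors together. At 12 h all 14 measured genes were higher on average in DECP, with 10 non-overlapping (12.6% of all genes), and 1 rose (1.84% of all genes). At 24 h 11 of 14 were positive, 4 did not overlap (6.81% of all genes) and 2 rose (2.72% of all genes). Eif3b, a core subunit, rose at both times. At 12 h it was at 100.1, 122 and 173 TPM in DECP and 50.8, 51.7 and 43.0 TPM in DECN (2.71-fold, log2 1.39 ± 0.24 SE, limma adjusted p = 0.0367). At 24 h it was at 107, 63.5, 105 and 79.3 TPM in DECP and 45.1, 48.8, 56.1 and 50.9 TPM in DECN, again with every DECP library higher (log2 0.78 ± 0.20 SE, limma adjusted p = 0.0430). Under rapamycin it was at 80.0, 52.0, 67.8 and 76.5 TPM, a range that overlapped both other groups. Eif3a, the scaffold subunit, moved less but varied little: at 24 h it was at 157, 178, 169 and 167 TPM in DECP, 112, 124, 119 and 129 TPM in DECN and 115, 145, 121 and 123 TPM under rapamycin. The difference of DECP from DECN was 0.47 ± 0.11 SE on the log2 scale (limma adjusted p = 0.0390), and that of rapamycin-treated from untreated DECP was -0.41 (95% interval -0.66 to -0.17, limma adjusted p = 0.0906).

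The loosely bound subunit eIF3j is encoded in the mouse by the near-identical genes Eif3j1 and Eif3j2. Eif3j2 was at 31.0, 45.4, 42.2 and 42.4 TPM under rapamycin, 81.2, 84.4, 53.2 and 96.6 TPM in untreated DECP and 42.8, 44.6, 46.2 and 58.3 TPM in DECN at 24 h. Rapamycin-treated libraries were all below the untreated ones, 1.96-fold on the means (log2 -0.93 ± 0.20 SE, limma adjusted p = 0.0315). How reads were divided between the copies limits this value, and Eif3j1, at 3.11 to 10.3 TPM in that table, passed in no comparison. Some eIF3 subunits differed in the other direction under rapamycin. Eif3f was at 759.5, 708, 829 and 759 TPM under rapamycin and at 504, 665, 510.1 and 611 TPM in untreated DECP, without overlap and short of the threshold (log2 0.42, 95% interval 0.16 to 0.68, limma adjusted p = 0.0987). Eif3h was at 719, 608, 707 and 590.4 TPM under rapamycin and 539, 561, 538 and 529.6 TPM in untreated DECP (log2 0.27, 95% interval 0.08 to 0.46, limma adjusted p = 0.158). Both subunits lay higher in all rapamycin-treated libraries, where Eif2s1, Eif2s2, Eif3a and Eif3j2 lay lower in all.

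The eIF4F complex recruits capped mRNAs: eIF4E binds the cap, eIF4A unwinds the leader and eIF4G holds them together. Its components did not move as a unit at 24 h. Eif4a1 (chr11:69666936-69672423, minus strand, GENCODE M21 on GRCm38), the main helicase gene, was at 686, 626, 555 and 676 TPM in DECP, 359, 266, 356 and 287 TPM in DECN and 447, 452, 406 and 438 TPM under rapamycin. The 3 groups did not overlap, with the rapamycin-treated libraries between the others. DECP exceeded DECN 2.00-fold (log2 1.01 ± 0.12 SE, limma adjusted p = 0.00102), the smallest adjusted p of any member in the 4 comparisons, and rapamycin-treated cells were 1.46-fold lower than DECP (log2 -0.54 ± 0.12 SE, adjusted p = 0.0300). They were 1.37-fold above DECN, which missed the threshold (log2 0.47, 95% interval 0.22 to 0.72, adjusted p = 0.0775). Its paralog Eif4a2 showed no such order, at 355, 471, 298 and 395 TPM in DECP, 405, 415, 481 and 416 TPM in DECN and 299, 481, 337 and 419 TPM under rapamycin (DECP against DECN, log2 -0.19, 95% interval -0.55 to 0.16). A test of the difference between the paralogs was not made.

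Eif4e (chr3:138526179-138559696, plus strand), the cap-binding protein, was at 69.6, 72.2, 72.1 and 81.2 TPM in DECP at 24 h, 37.1, 45.3, 47.3 and 35.0 TPM in DECN and 46.8, 62.3, 46.0 and 54.1 TPM under rapamycin. DECP libraries lay above all others. The increase over DECN was 1.79-fold (log2 0.84 ± 0.16 SE, limma adjusted p = 0.0114), and rapamycin-treated cells differed from DECP by -0.50 (95% interval -0.84 to -0.15, limma adjusted p = 0.153). At 12 h both genes were higher in every DECP library without passing: Eif4a1 at 217, 211 and 256 against 116, 109 and 182 TPM (limma adjusted p = 0.121), and Eif4e at 178, 259.6 and 240.3 against 104, 138 and 152 TPM (limma adjusted p = 0.111). The scaffold gene Eif4g1 was higher in all DECP libraries at 12 h, at 592, 452 and 452 against 353, 369.8 and 304 TPM (limma adjusted p = 0.142). At 24 h it was at 83.0, 79.7, 84.6 and 88.2 TPM in DECP, 89.3, 84.0, 70.0 and 91.0 TPM in DECN and 78.2, 94.6, 77.8 and 87.8 TPM under rapamycin, and the groups overlapped (DECP against DECN, log2 0.01, 95% interval -0.28 to 0.30). Eif4enif1, which encodes a partner of eIF4E that carries it into the nucleus, had the lowest p of the members that were lower in DECP than in DECN, at 462, 530.0 and 370.2 TPM in DECP and 781, 893 and 680.5 TPM in DECN at 12 h (log2 -0.80, 95% interval -1.23 to -0.36, limma adjusted p = 0.0667).

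The stretches before the starts of genes in this group are shown because Eif4a1, Eif4e and Eif5a rose in DECP at 24 h while Eif4g1 did not pass, and the E-box CACGTG, the motif that MYC and related factors bind, is in all 4. The sequences are from RefSeq promoter windows (GRCm38.p6), 5′ to 3′ on the strand of the gene, and capitals mark the motif. Those of Eif4a1, Eif5a and Eif4g1 end just before the annotated start, except where bases of an annotated exon were left off. That of Eif4e is a short stretch around the motif.
Eif4a1: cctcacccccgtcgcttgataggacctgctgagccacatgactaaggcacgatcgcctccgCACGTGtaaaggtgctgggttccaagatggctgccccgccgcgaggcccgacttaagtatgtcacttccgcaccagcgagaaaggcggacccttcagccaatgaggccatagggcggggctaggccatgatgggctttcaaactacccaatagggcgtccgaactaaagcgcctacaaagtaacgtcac
Eif4e: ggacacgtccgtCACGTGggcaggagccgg
Eif5a: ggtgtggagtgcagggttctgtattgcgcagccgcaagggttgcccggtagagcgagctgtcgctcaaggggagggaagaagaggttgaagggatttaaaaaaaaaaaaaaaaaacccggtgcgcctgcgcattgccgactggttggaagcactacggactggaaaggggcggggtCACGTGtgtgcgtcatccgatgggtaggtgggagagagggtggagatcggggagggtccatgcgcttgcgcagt
Eif4g1: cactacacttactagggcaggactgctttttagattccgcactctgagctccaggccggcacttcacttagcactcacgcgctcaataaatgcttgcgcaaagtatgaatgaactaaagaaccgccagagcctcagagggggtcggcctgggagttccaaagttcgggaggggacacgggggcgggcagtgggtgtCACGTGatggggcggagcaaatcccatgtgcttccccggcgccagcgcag
The Eif4a1 stretch is chr11:69672424-69672673 on the minus strand, and the motif begins 189 bases before the start. That of Eif5a is chr11:69921387-69921636, also on the minus strand, with the motif 74 bases before the start, and belongs to 1 of its 6 windows, of which 3 hold the motif. For Eif4e only the 30 bases around the motif, chr3:138527192-138527221 on the plus strand, are shown, since the motif itself lies in an annotated exon. The motif is 64 bases before a start, and the same window holds a further match 228 bases before that start. That start belongs to 1 of the 2 windows of Eif4e, and the other, chr3:138525941-138526240, lacks the motif. For Eif4g1 the stretch is chr16:20672477-20672722 on the plus strand, with the motif 54 bases before the start of its window. That start lies inside the annotated gene, chr16:20668313-20692884. A further match in the window begins at base 16 counted from the start, outside the stretch shown. Windows of 250 bases before to 50 after the start were given for 40 of the 52 members. The motif, a palindrome that reads the same on both strands, was in at least 1 window of 11 of these (27.5%): Eef2, Eif1b, Eif3a, Eif3f, Eif3k, Eif4a1, Eif4e, Eif4g1, Eif4h, Eif5a and Eif5a2. It was in 8.09% of all 27025 genes with a window and in 11.2% of the 9867 of them with a TPM of at least 1 in 3 or more libraries of a table. Of the 11, Eif4a1, Eif4e, Eif5a and Eif3a rose at 24 h and the other 7 passed in no comparison. Of the 29 members whose windows lacked the motif, 4 rose at 24 h, and 2.72% of all genes tested did. At 12 h the order was the other way: 1 of the 11 and 5 of the 29 rose (1.84% of all genes). In rapamycin-treated against untreated DECP, 2 of the 11 and 2 of the 29 fell (1.53% of all genes), and 0 and 1 rose (0.657%). In rapamycin-treated DECP against DECN, 0 of the 11 and 2 of the 29 were higher (0.774% of all genes). A match of letters is a description of the sequence, and no binding was measured.

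**Figure D3:**
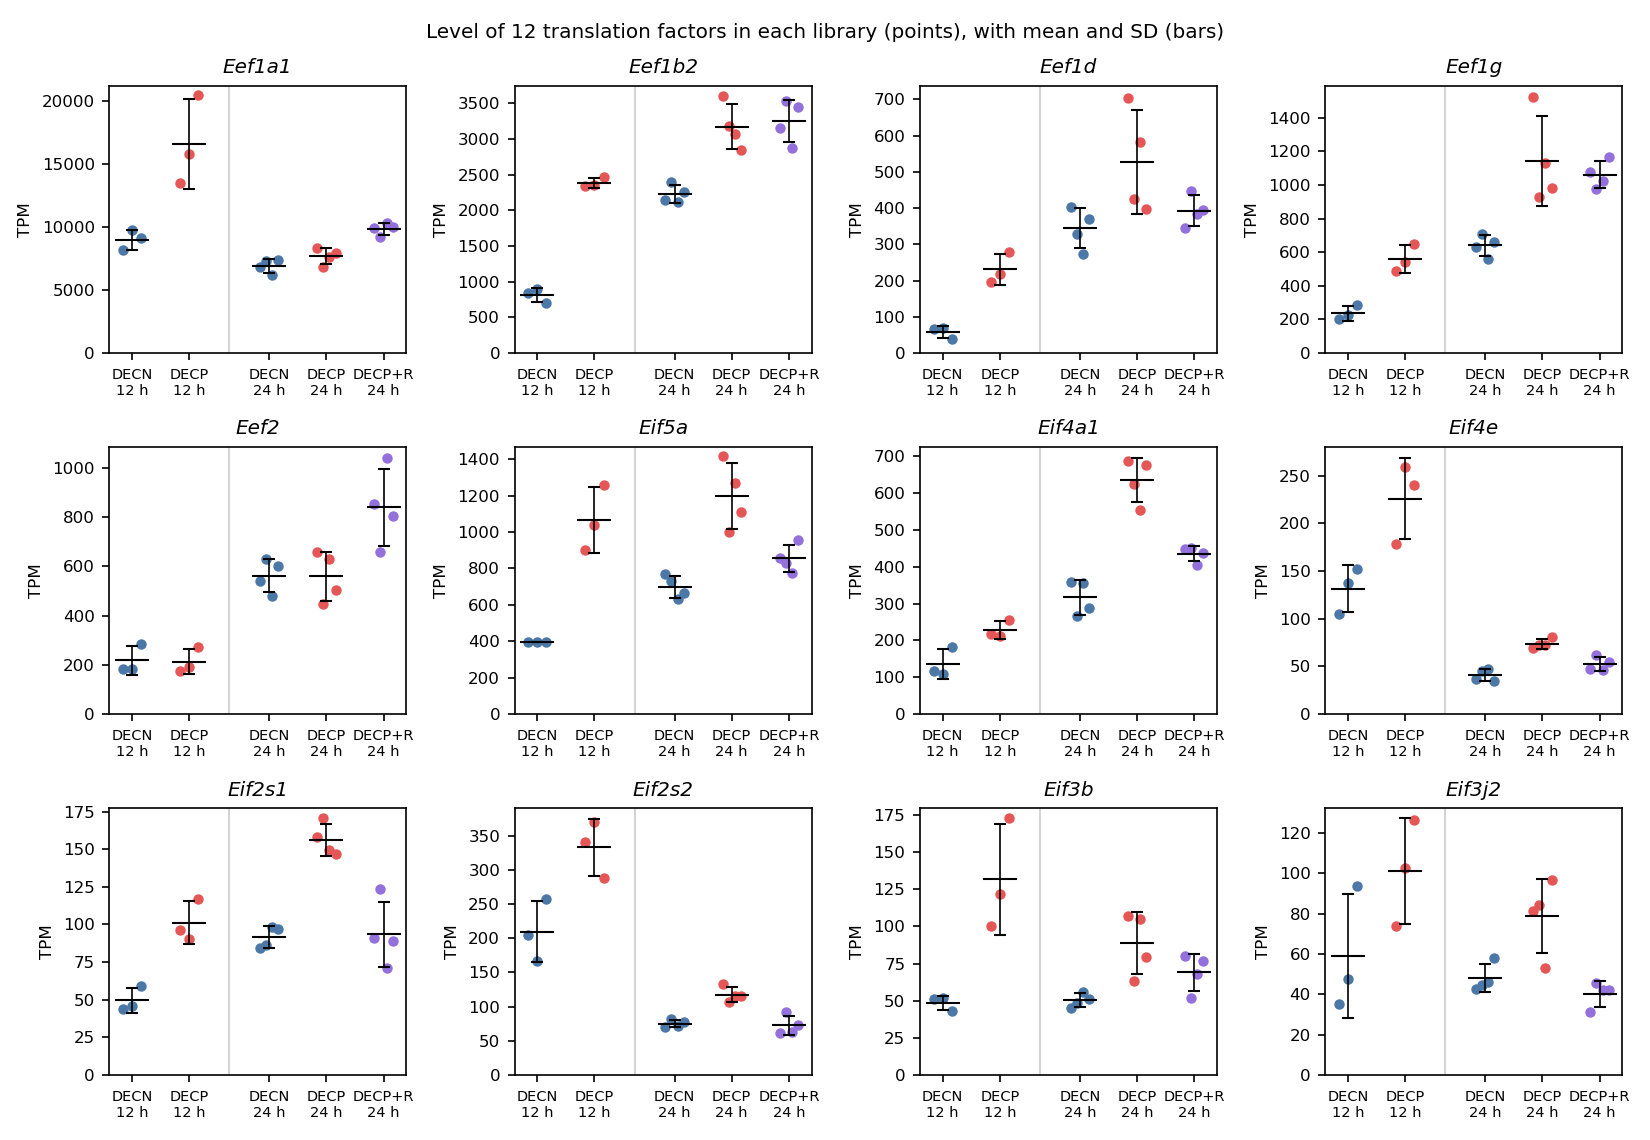
Level of 12 translation factors (vertical axis, TPM from 0) in each library, with points for libraries and bars for mean and SD; DECP+R is DECP with rapamycin, and the grey line parts the 2 tables. At 24 h Eif4a1, Eif4e, Eif2s1 and Eif2s2 are highest in untreated DECP, Eef1a1 is highest under rapamycin, and Eef1b2 and Eef1g are raised in DECP with and without rapamycin.

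Eif5a (chr11:69916714-69921958, minus strand) encodes a factor that helps the ribosome past difficult peptide bonds and carries the modified residue hypusine. It rose in DECP at both times. At 12 h it was at 903, 1038 and 1259 TPM in DECP and at 397, 393 and 395 TPM in DECN, whose libraries were almost equal (2.70-fold, log2 1.42 ± 0.16 SE, 3 against 3 libraries, limma adjusted p = 0.0127). At 24 h it was at 1416, 998, 1269 and 1109 TPM in DECP, 769, 729, 632 and 662 TPM in DECN and 857, 832, 776 and 954 TPM under rapamycin. The 3 groups did not overlap, and rapamycin-treated libraries again lay between the others. The increase over DECN was 1.72-fold (log2 0.77 ± 0.11 SE, limma adjusted p = 0.00282), and rapamycin-treated cells were 1.40-fold lower than DECP (log2 -0.48 ± 0.11 SE, adjusted p = 0.0497), a call that 11 of 14 other fits ended. Eif6, which keeps the large ribosomal subunit from joining too early, was at 426, 223, 292 and 247 TPM in DECP at 24 h, 187, 219.7, 187 and 166 TPM in DECN and 188, 167, 199.8 and 207 TPM under rapamycin. All DECP libraries were above the others, and neither difference passed (log2 0.60, limma adjusted p = 0.0817, and log2 -0.60, adjusted p = 0.120). Eif5, the GTPase activator of eIF2, and Eif5b passed in no comparison. Eif5a2, the scarce paralog of Eif5a, was at 5.74 to 13.9 TPM in DECP, 2.81 to 7.46 TPM in DECN and 1.41 to 5.65 TPM under rapamycin (rapamycin against DECP, log2 -1.26, 95% interval -2.09 to -0.43, limma adjusted p = 0.125).

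Of the 5 elongation factors 4 rose at 12 h. Eef1d, a nucleotide exchange subunit of the eEF1 complex, was at 195, 219 and 278 TPM in DECP and 67.4, 68.0 and 39.7 TPM in DECN, the largest difference of any member in that comparison (3.95-fold, log2 1.99 ± 0.27 SE, limma adjusted p = 0.0183). Eef1b2 (chr1:63176825-63180486, plus strand), another exchange subunit, was at 2336, 2355 and 2462 TPM in DECP and 836, 893 and 707 TPM in DECN (2.94-fold, log2 1.56 ± 0.14 SE, limma adjusted p = 0.0125). No library of one group reached the other. Eef1g, the subunit that anchors the exchange complex, was at 487, 544 and 648 TPM in DECP and 201, 224 and 285 TPM in DECN (2.36-fold, log2 1.24 ± 0.19 SE, limma adjusted p = 0.0268). Eef1a1 (chr9:78478449-78489151, minus strand), which delivers aminoacyl-tRNA and is the most abundant member, was at 13449.8, 15795 and 20456 TPM in DECP and 8149, 9719.9 and 9111 TPM in DECN (1.84-fold, log2 0.86 ± 0.17 SE, limma adjusted p = 0.0446). The difference was 0.59 with a limma adjusted p of 0.392 under quantile scaling, and pseudogenes of Eef1a1 share its reads. Eef2, which moves the ribosome by a codon, did not go with them: it was at 175, 192 and 272 TPM in DECP and 185, 183 and 286 TPM in DECN (log2 -0.03, 95% interval -0.62 to 0.56).

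At 24 h Eef1b2 was at 3599.6, 3184, 3069.5 and 2849 TPM in DECP, 3154, 3534, 2876 and 3449.5 TPM under rapamycin and 2149, 2401, 2119 and 2259 TPM in DECN. Both DECP groups overlapped each other and lay above DECN (DECP log2 0.51 ± 0.09 SE, limma adjusted p = 0.00672; rapamycin-treated log2 0.54 ± 0.09 SE, adjusted p = 0.0136). Their own difference was 0.04, with a 95% interval of -0.15 to 0.22. Eef1g also lay above DECN in both DECP groups, at 1523, 930.3, 1130.3 and 982 TPM in DECP, 1079, 977, 1025 and 1166 TPM under rapamycin and 633, 707, 561 and 659 TPM in DECN (log2 0.81 ± 0.14 SE, limma adjusted p = 0.00630, and 0.73 ± 0.14 SE, adjusted p = 0.0278). The interval for rapamycin against DECP was -0.38 to 0.22.

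Eef1a1 was highest under rapamycin at 24 h, at 9879, 9183, 10324 and 9954 TPM, against 8354, 6804, 7617 and 7924 TPM in untreated DECP and 6804, 7273, 6186 and 7348 TPM in DECN. Rapamycin-treated libraries lay above all others, and the other groups overlapped. The rise was 1.28-fold over untreated DECP (log2 0.36 ± 0.07 SE, limma adjusted p = 0.0255) and 1.42-fold over DECN (log2 0.51 ± 0.07 SE, adjusted p = 0.0111), while DECP differed from DECN by 0.15 (95% interval -0.01 to 0.31). Eef2 also had its highest levels under rapamycin, without overlap, at 853, 659, 1040.3 and 805 TPM under rapamycin, 657, 447, 629.5 and 505 TPM in DECP and 541, 628, 478 and 599.6 TPM in DECN. It missed the threshold against either group (log2 0.58, limma adjusted p = 0.0798, and log2 0.57, adjusted p = 0.107). Eef1d was at 346, 448, 385 and 394 TPM under rapamycin, 704, 425, 581 and 398 TPM in DECP and 404, 328, 275 and 371 TPM in DECN, with overlap between all groups.

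The genes around the factors were read from further lists. Of 16 regulators of translation factors, such as the eIF4E-binding proteins, the eIF2 kinases, the eEF2 kinase, Pdcd4 and Larp1, none passed limma's test in any of the 4 comparisons. At an unadjusted p under 0.05 there was 1 higher at 12 h, 3 lower in DECP against DECN at 24 h, 0 in rapamycin-treated against DECP and 2 lower in rapamycin-treated against DECN, where 10.8% of all genes were higher in the first and 7.42% and 6.42% lower in the second and the last of these. Of 15 tested genes for other cytosolic factors, Eef1e1 (log2 1.80, limma adjusted p = 0.0319) and the release factor gene Gspt1 (log2 1.01, adjusted p = 0.0368) rose at 12 h, and Paip2, whose product restrains the poly(A)-binding protein, fell (log2 -0.68, adjusted p = 0.0470). At 24 h Gspt1 (log2 1.15, limma adjusted p = 0.00344), its partner in termination Etf1 (log2 0.97, adjusted p = 0.0114) and the poly(A)-binding protein gene Pabpc1 (log2 0.50, adjusted p = 0.0335) rose in DECP. Pabpc1 was also higher in rapamycin-treated DECP than in DECN (log2 0.60, limma adjusted p = 0.0310), and none of the 15 passed between rapamycin-treated and untreated DECP, with 1 higher and 5 lower at an unadjusted p under 0.05 (5.58% and 8.32% of all genes). Of 11 mitochondrial translation factors, Gfm1 rose at 24 h (log2 1.11, limma adjusted p = 0.0379) and no other passed in any comparison. At an unadjusted p under 0.05 there were 2 higher at 12 h, 1 higher at 24 h, 1 lower in rapamycin-treated against untreated DECP and 1 higher against DECN, where 10.8%, 10.3%, 8.32% and 6.89% of all genes were.

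The authors' deposited table of each comparison, whose test tool is not given in the sources, was read for the same 52 genes. At an adjusted p under 0.05, the authors' deposited table for 12 h listed 18 members higher and 1 lower in DECP, the lower being Eif4enif1 with a log2 fold change of -0.69. For 24 h the authors' deposited table listed 12 higher and 0 lower in DECP against DECN. It listed 1 higher (Eif3f) and 11 lower in rapamycin-treated against untreated DECP, where 51 members had an adjusted p, and 3 higher and 0 lower in rapamycin-treated DECP against DECN. The authors' deposited tables also called all 9, 9 and 3 members called here in the comparisons with DECN, and 5 of the 6 called between rapamycin-treated and untreated DECP. The exception was Eef1a1. The share of all genes that the authors' deposited tables called was not counted, so their member counts have no background here. Both tests used the same libraries, and the shared calls are no independent support.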

How the data were processed

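RNA was sequenced in 18 libraries of 5 groups, taken from the sample titles. The submitters' processing notes name kallisto 0.43.0 and the genome build GRCm38. kallisto divides a read that fits near-identical copies by an estimate. The authors deposited, per the file headers, a score per gene and library that is TPM plus 1, and 1 was subtracted here. They also deposited tables with mean normalized counts (a signal), log2 fold changes, a test score (the fold change over its error) and p-values, which were used for comparison only.

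limma 3.58.1 in R 4.3.3 was run with an intensity trend on log2(TPM + 1), with a pseudocount of 1, for each gene that reached a TPM of 1 in as many libraries as the smallest group holds (3 at 12 h, 4 at 24 h). The 12 h fit used 6 libraries and the 24 h fit all 12, with two-sided p-values adjusted over all genes tested and a threshold of 0.05. A member that "rose" or "fell" passed it. A fold change on this scale understates that of low genes. The pipeline was tested on simulated data. Of the gene identifiers, 30123 of 30452 and all 52 members were found in GENCODE M21. Plots were drawn in Python 3.11.15 with matplotlib 3.10.9.

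The members, the lists and the tests were chosen with earlier results of these data known. Values in every library are given for members past the threshold and for Eif4e, Eif4a1, Eif4a2, Eif4g1, Eif2s1, Eif3b, Eif5a, Eif6, Eef1a1, Eef1b2 and Eef2. Other members named with values were chosen after their values were seen, and so was the promoter motif. At 24 h the libraries carried 1 of 2 second indexes, 2 libraries of each group with each. All members past the threshold had the same sign within either index. Their groups did not overlap, so that sign was fixed in advance and tells nothing about an effect of the index. No pair of libraries held more than 0.00819% equal values. Alternatives covered the pseudocount, the filter, scaling, array weights, the trend, a 2-fold minimum, the replicate number and the second index as terms, a fit of just the compared groups and the omission of each library. Removal of a trend on transcript length and rescaling without Eef1a1 at 12 h were added after the data were seen.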

Additional observations from a re-analysis of the deposited data

Results flagged for a closer look

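One level stood apart from its group. Eif4a2 was at 481 TPM in DECN replicate 3 at 24 h, where the nearest DECN library was at 416 TPM and the lowest at 405 TPM. The gap was 0.855 of the range of the 4 libraries, above Dixon's 95% critical value for 4 libraries. Of the 57 groups of libraries examined this was 1, and chance gives about 1 in 20. Eif4a2 passed in no comparison.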

How the results depend on the processing

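Over all members past the threshold and all refits, which leaves out the 2-fold minimum, the call was kept 423 times, lost 215 times and turned in direction 0 times. At 12 h, 9 higher became 1 with no filter on low values, 3 with no intensity trend and 0 with the replicate number as a block, and 0 to 4 as libraries were left out; 0 lower became 1 (Eif4enif1) when a TPM of 5 was required and with array weights. For DECP against DECN at 24 h, 9 higher became 1 with a 2-fold minimum, 5 with quantile scaling and 3 with no trend, and 5 to 9 as libraries were left out. For rapamycin-treated against untreated DECP, 1 higher became 0 with a 2-fold minimum, no filter, median centring, no trend, the replicate block or only the 2 groups, 2 with a TPM of 5 or array weights and 3 with quantile scaling, and 0 to 2 as libraries were left out. Its 5 lower became 0 with a 2-fold minimum, quantile scaling, rescaling without ribosomal protein genes, no trend or the replicate block, 2 with no filter, 1 with only the 2 groups, 3 without the length trend, and 0 to 5 as libraries were left out. Against DECN, 3 higher became 0 with a 2-fold minimum or no trend, 2 with the replicate block, and 1 to 3 as libraries were left out. No genes at all passed at 12 h with the block. Same-numbered libraries did not deviate together (correlations from -0.00278 to 0.0530 at 12 h and from -0.0571 to 0.0918 at 24 h), so the numbers were not taken as pairs.

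Signs turned for differences that lay near 0 and passed in no setting. For Eif4g1 in DECP against DECN at 24 h the values were -0.082 (quantile scaling), -0.025 (length trend) and -0.071 to 0.054 as libraries were left out. For Eif4g1 in rapamycin-treated against untreated DECP they were -0.052 (median centring), -0.011 (array weights) and -0.047 to 0.046, and against DECN -0.0090, -0.010 and -0.063 to 0.062 in the same order. For Eef2 in DECP against DECN they were 0.016 (median centring), 0.0090 (no ribosomal protein genes) and -0.099 to 0.086 at 24 h, and 0.044 (array weights) and -0.22 to 0.18 at 12 h. In rapamycin-treated against untreated DECP, Eef1b2 came to -0.17 (quantile scaling), -0.024 (median centring) and -0.015 to 0.097, and Eif4a2 to -0.049 (median centring) and -0.11 to 0.12. Against DECN, Eif2s1 came to -0.023 (median centring), -0.0026 (no immunoglobulin or mitochondrially encoded genes), -0.027 (array weights), -0.020 (length trend) and -0.14 to 0.13, and Eif6 to -0.021, -0.00059 (median centring, then no immunoglobulin or mitochondrially encoded genes) and -0.056 to 0.079. The causes were not tested. Read depth per library is unknown, so its limit on low members such as Eif5a2 and Eif3j1 cannot be given.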
